A study of Homo sapiens with 20 samples.

Results

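The replication-dependent histone genes were examined for RNA polymerase II and MYC in PC-3 cells, an established human prostate cancer cell line. They were taken as the protein-coding genes of GENCODE release 44 on GRCh38 with the symbols H1-1 to H1-6 or with a symbol that starts with H2AC, H2BC, H3C or H4C and ends in a number. This gave 69 of 20046 protein-coding genes, of which 6 encode the linker histone H1, 17 H2A, 18 H2B, 13 H3 and 15 H4. The rule used the symbols and no measured value, but the set was chosen with earlier results of these data known.

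The measurements came from chromatin immunoprecipitation with sequencing (ChIP-seq), with an antibody against RNA polymerase II (POL2) and another against the transcription factor c-Myc (MYC). The wild-type group (WT) was unedited PC-3 cells, and the knockout group (SLK-KO) was PC-3 cells that lack the kinase gene SLK and are named PSD10 in the labels. Both groups were grown to the same confluence under standard culture with no other agent, and each gave 3 libraries per antibody that the series calls biological replicates. The labels do not say what PSD10 stands for or whether it is 1 clone. If it is, its 3 libraries cannot tell an effect of the missing kinase from other traits of that clone.

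Each of the 12 libraries had a list of peak summits, the single positions where the authors' peak caller placed the top of an enriched region, with a score for each. The POL2 lists held 17126, 5047 and 9925 summits in WT and 19017, 15436 and 16298 in SLK-KO. The MYC lists held 365, 201 and 267 in WT and 1218, 1420 and 988 in SLK-KO. Read depth is unknown, so the precision behind a summit cannot be given, and a gene without a summit is described as not listed. Knockout of SLK cannot be checked from summit lists. Among markers checked against the labelled cell type, the epithelial keratin genes KRT8, KRT18 and KRT19 had a POL2 summit in all 6 libraries, and the blood markers PTPRC and CD3E had none. The prostate luminal gene KLK3 had none either. Epithelial EPCAM was listed in 1 WT and 3 SLK-KO libraries, fibroblast COL1A1 in 2 of each and COL1A2 in none, and endothelial PECAM1 in 2 WT and 3 SLK-KO and CDH5 in 0 WT and 3 SLK-KO libraries.

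Replication-dependent histone genes supply the core and linker histones that package newly copied DNA, and cells transcribe them mainly in S phase. Most lie in dense clusters that gather in nuclear histone locus bodies with the coactivator NPAT, many H2A and H2B genes sit back to back and share a promoter, and their messages end in a conserved stem-loop, bound by the protein SLBP, where other messages carry a poly(A) tail. Replication-independent histones, such as H3.3 and H2A.Z, come from scattered genes that are expressed throughout the cell cycle.

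The 69 genes formed 6 groups when genes of a chromosome 300 kb or less apart were chained. On chromosome 6, 34 lay from 25723397 to 26285638, 5 from 27125897 to 27147562 and 16 from 27807479 to 27893891. On chromosome 1, 11 lay from 149782689 to 149887965, and H2AC25 and H2BC26 lay from 228434777 to 228463104. H4C16 was alone on chromosome 12, from 14767999 to 14771131. Every canonical transcript was a single exon, 386 to 2224 bases long with a median of 487.

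The promoters are shown here because POL2 summits of these genes gathered at them. Each sequence is GRCh38, printed 5′ to 3′ on the stated strand, and stops at the base next to a transcription start site (TSS). Capitals mark TATAAA (the TATA box) and CCAAT (the CCAAT box). They also mark the octamer ATTTGCAT, which POU2F1 binds, and all of these appear as their reverse complement where they lie on the other strand. The first set holds the whole interval between the starts of an H2A and an H2B gene. H2BC21 with H2AC20 (chr1:149886683-149886917, + strand) had the best-ranked POL2 summit of all members, H2BC8 with H2AC8 (chr6:26216689-26216920, + strand) was listed in all 6 libraries with the summit on H2BC8 in 4 and between the starts in 2, and H2AC1 with H2BC1 (chr6:25726563-25726776, + strand), a pair best known from the testis, was not listed.
H2BC21/H2AC20: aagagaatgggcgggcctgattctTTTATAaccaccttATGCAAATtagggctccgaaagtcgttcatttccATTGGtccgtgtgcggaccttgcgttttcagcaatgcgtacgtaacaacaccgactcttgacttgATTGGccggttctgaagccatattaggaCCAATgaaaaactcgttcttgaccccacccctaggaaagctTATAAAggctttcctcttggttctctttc
H2BC8/H2AC8: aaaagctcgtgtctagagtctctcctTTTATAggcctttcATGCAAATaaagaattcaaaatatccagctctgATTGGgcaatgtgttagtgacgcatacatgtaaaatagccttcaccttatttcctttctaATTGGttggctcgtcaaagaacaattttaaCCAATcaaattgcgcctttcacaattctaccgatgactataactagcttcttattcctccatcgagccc
H2AC1/H2BC1: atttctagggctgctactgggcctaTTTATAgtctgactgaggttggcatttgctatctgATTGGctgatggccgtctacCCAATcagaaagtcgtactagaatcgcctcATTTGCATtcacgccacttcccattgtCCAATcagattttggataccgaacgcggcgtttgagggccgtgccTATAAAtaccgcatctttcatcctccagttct

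The second set sets the H1 gene with the best-ranked summit of its own beside an H4 gene that was listed in all 6 libraries. These are the 150 bases before the TSS of H1-2 (chr6:26056471-26056620, - strand) and H4C2 (chr6:26027284-26027433, - strand).
H1-2: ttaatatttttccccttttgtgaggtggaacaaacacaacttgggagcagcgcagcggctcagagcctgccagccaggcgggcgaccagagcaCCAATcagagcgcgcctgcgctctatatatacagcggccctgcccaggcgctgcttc
H4C2: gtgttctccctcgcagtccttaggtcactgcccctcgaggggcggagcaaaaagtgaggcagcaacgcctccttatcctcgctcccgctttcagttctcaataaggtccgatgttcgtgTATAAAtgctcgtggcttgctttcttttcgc

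In the window from 250 bases before to 50 bases after the TSS, on both strands, TATAAA was found in 46 of 69 members (66.7%), against 9.71% of all protein-coding genes. On the gene's own strand with its first base 36 to 24 bases before the TSS, it was found in 38 members (55.1%), against 3.85% of all genes. CCAAT was found in 85.5% of members and 36.1% of all genes. It was present in every H1, H2A, H2B and H3 member and in 5 of 15 H4 members (33.3%). ATTTGCAT was found in 37.7% of members and 1.62% of all genes, in 12 of 17 H2A and 14 of 18 H2B members and in no H1, H3 or H4 member. TATAAA can overlap its own reverse complement, and other motifs can share end letters, and no count was adjusted for this. The canonical E-box CACGTG, the sequence MYC binds, was in 0 of 69 member windows and in 8.75% of all windows. Windows of an H2A and H2B pair overlap, so their members are not independent. A match describes letters in a window and not a bound site.

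The CCAAT box was about as frequent in listed as in unlisted promoters. Of the 37 members with POL2 in all 6 libraries, 70.3% held TATAAA, 86.5% CCAAT and 48.6% the octamer. Of the 19 members with no POL2 summit, 57.9% held TATAAA, 84.2% CCAAT and 21.1% the octamer. The octamer shares follow the family mix in part: among H2A and H2B members alone it was in 18 of 20 listed in all 6 libraries and in 4 of 6 unlisted, and the difference was not tested. The unlisted H2AC1 and H2BC1 interval printed above holds all of the 3 motifs.

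The histone stem-loop was found on the sense strand within 200 bases after the stop codon in 69 of 69 members, 23 to 68 bases after it with a median of 36. There were 10 different sequences, each with 2 arms of 6 bases around a loop of 4. The 4 commonest are printed with the arms in capitals, from H2BC21 (chr1:149886188-149886203, - strand), H4C5 (chr6:26205001-26205016, + strand), H2AC21 (chr1:149887473-149887488, - strand) and H4C12 (chr6:27831178-27831193, - strand). They occurred in 40, 10, 9 and 4 members.
H2BC21: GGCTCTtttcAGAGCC
H4C5: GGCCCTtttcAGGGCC
H2AC21: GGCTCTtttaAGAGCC
H4C12: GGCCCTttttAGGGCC
The arms differ at the same places on both sides, so that the pairing is kept in these 4. The stem-loop marks the 3′ end of the message and is used below to place the summits.

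**Figure D1:**
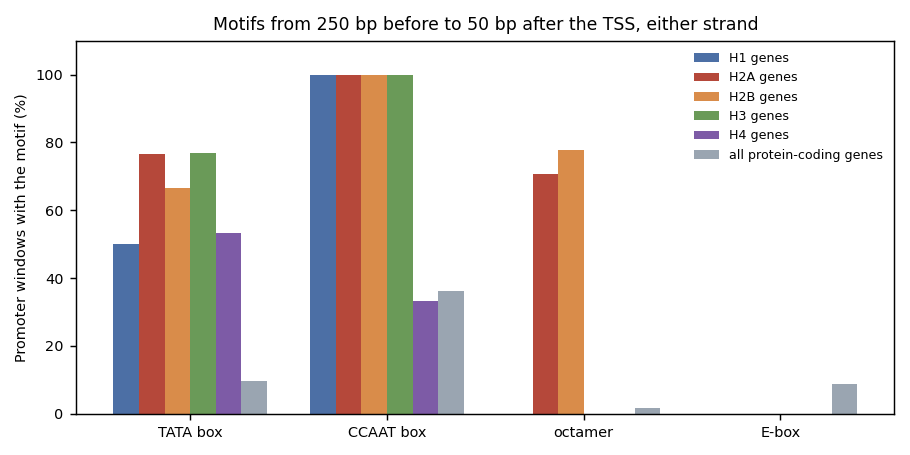
Share of genes (%) with each motif in the 300-base promoter window, for the 5 histone families and for all 20046 protein-coding genes. The octamer was in 70.6% of H2A and 77.8% of H2B members and in none of the H1, H3 and H4 members.

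A POL2 summit lay within 1 kb of most replication-dependent histone genes, and mostly of the same ones from library to library. With a summit within 1 kb of the gene, 41, 42 and 44 of the 69 were listed in WT and 44, 42 and 41 in SLK-KO. Of all protein-coding genes, 50.9%, 21% and 37.9% were listed in WT and 52.9%, 48.5% and 50.7% in SLK-KO. The members' share (59.4% to 63.8%) was thus nearly constant across lists whose length differed widely, and WT replicate 2, with the shortest list, held 60.9% of them. Chromatin was taken from many cells together, so the share of cells in which a gene carries POL2 and the amount per cell cannot be told apart.

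In all 6 libraries 37 members had a POL2 summit (53.6%), against 20.0 percent of all protein-coding genes. At least 1 library listed 50 members (72.5%, background 57.8 percent). At least 2 of 3 WT libraries listed 43 members (62.3%, background 38.0 percent), and at least 2 of 3 SLK-KO libraries listed 41 (59.4%, background 51.0 percent). The SLK-KO count is the one nearest to its background. With the window set around the canonical TSS alone, 33 members were listed in all 6 libraries (47.8%, background 16.3 percent). The 4 that this removed were H3C12, H1-4, H2AC21 and H3C13, which were listed through summits nearer to neighbouring members in some or all libraries. A summit counts for every member within 1 kb, so more members than these 4 shared one with a neighbour. With each summit counted for its nearest member alone, 22 members were listed in all 6 libraries (31.9%). At least 2 WT libraries then listed 30 members, and at least 2 SLK-KO libraries 30. No like count was made for all genes.

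**Figure D2:**
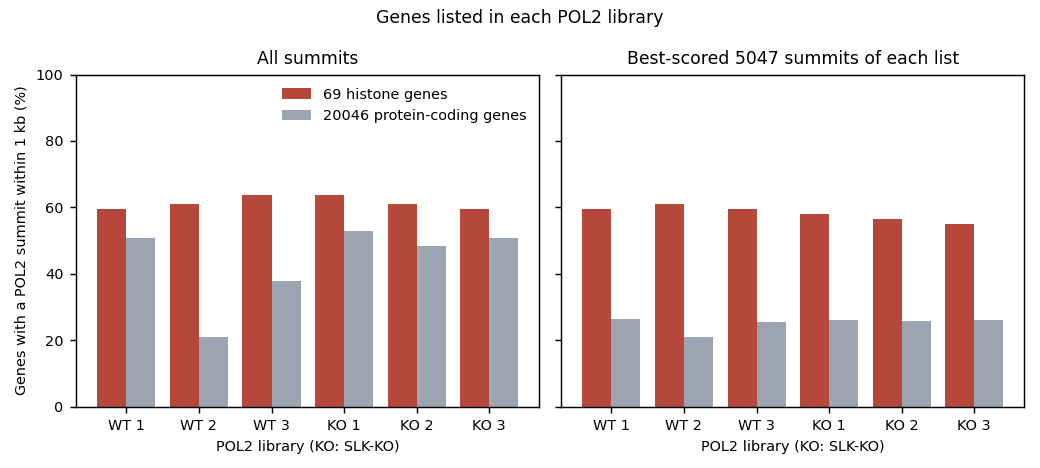
Bars give the percent of the 69 members and of all 20046 protein-coding genes that had a POL2 summit 1 kb away or less, in each library, over the full lists (left) and over lists of equal length (right). The members lie between 59.4% and 63.8% in the full lists, while all genes range from 21% to 52.9%.

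No member was listed in every library of one genotype and in none of the other. Listed in 3 SLK-KO and 0 WT libraries were 0 members, against 1.72 percent of all genes, and listed in 3 WT and 0 SLK-KO libraries were 0, against 0.00998 percent. The mean number of members listed was 42.3 ± 1.53 (SD, n = 3) in WT and 42.3 ± 1.53 (SD, n = 3) in SLK-KO, a difference of 0. No p-value is given, because 3 libraries against 3 cannot go under 0.1 in an exact permutation test.

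The lists were then reduced to their 5047 best-scored summits, the length of the shortest. The WT lists held 41, 42 and 41 members and the SLK-KO lists 40, 39 and 38, so that the ranges did not overlap (WT mean 41.3 ± 0.577, SLK-KO mean 39.0 ± 1.0, SD over 3 libraries). Of all genes, these lists held 26.5%, 21% and 25.6% in WT and 26.2%, 25.8% and 26.1% in SLK-KO. All 6 reduced lists held 36 members (52.2%, background 14.5 percent). In 3 SLK-KO and 0 WT reduced lists there were 0 members (background 1.02 percent), and in 3 WT and 0 SLK-KO reduced lists 0 (background 0.469 percent). The difference of -2.33 members per list, SLK-KO minus WT, rested on 7 genes, H2AC4, H2BC5, H3C7, H2BC9, H2BC13, H2AC13 and H4C12, and H2BC13 and H2AC13 share a single summit. The other 62 were listed in equal numbers of WT and SLK-KO reduced lists. No peak held more than 1 summit, so a summit placed at a neighbour can leave a gene unlisted. H2BC5 was missing only in SLK-KO replicate 3, where the summit lay at H1-4. With a window of 2 kb, H2AC4 and H2AC13 were listed in all 6 full lists, because the window then reached the summits at H3C2 and H3C10. WT replicate 2 listed summits at both genes and at both neighbours, so this does not show that a summit had moved. The part of neighbouring summits in the difference was not tested.

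Rank was the place of a summit in its own list by score, and the rank percentile is that place as a percent of the list, so a low value is a strong summit within its library. The median over listed members was 0.736, 2.35 and 1.48 in WT and 0.975, 1.08 and 1.06 in SLK-KO. Over all listed genes it was 28.3, 39.9 and 36.1 in WT and 26.9, 30.4 and 30.0 in SLK-KO. Listed histone genes thus sat near the top of every list. In the equal-length lists the members' medians were 2.5, 2.35 and 2.87 in WT and 2.92, 2.97 and 2.92 in SLK-KO, and all genes lay at 39.9 to 47.8. The members' ranges in these lists did not overlap (difference 0.367, SLK-KO minus WT), a small step beside the gap to all genes. Ranks from the full lists, which differ in length, cannot show a change between genotypes.

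With POL2 in all 6 libraries and a median rank percentile of at most 1, there were 18 members (26.1%) among 128 genes in all (0.639%). At a limit of 5 there were 34 members (49.3%) among 699 genes (3.49%). Several members share 1 summit, so these are counts of genes and not of summits. The summits that lay near members in all 6 libraries, chained when 250 bp or less apart, formed 23 sites.

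**Figure D3:**
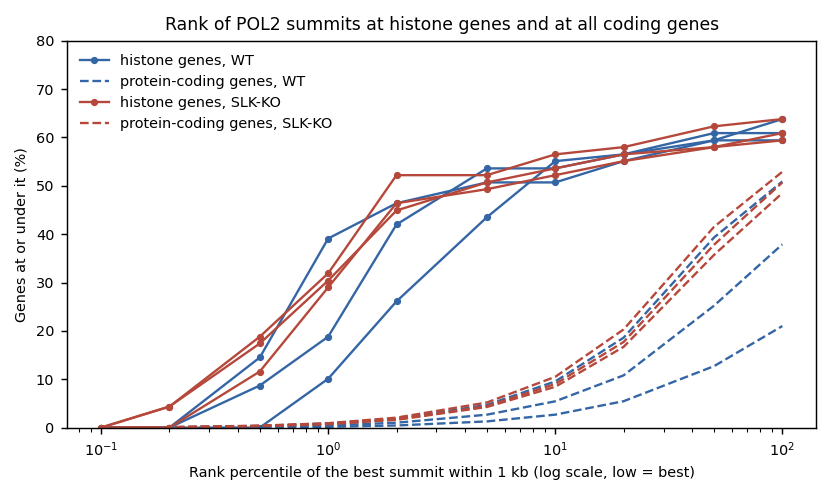
Cumulative percent of the 69 members and of all protein-coding genes by POL2 rank percentile (log axis) in each library. Solid lines are members and dashed lines all genes. At a percentile of 5 the members lie between 43.5% and 53.6% and all genes between 1.28% and 5.19%.

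The linker histone genes that were listed had the best family median. H1-2, a linker histone found in most dividing cells, had ranks of 51, 51 and 42 in WT and 53, 62 and 52 in SLK-KO. Its summits lay 109, 122 and 80 bases after the TSS in WT and 153, 70 and 79 in SLK-KO, with overlapping groups. H1-3 had ranks of 100, 96 and 145 in WT and 114, 113 and 89 in SLK-KO. The H1-2 ranks did not overlap between the genotypes, in lists of unequal length, while its rank percentiles in the full lists did. The H1-3 ranks overlapped.

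H1-4 was listed in all 6 libraries with a median rank percentile of 0.329, but mostly through a summit nearer to H2BC5. That summit had ranks of 55, 37 and 44 in WT and 51 and 44 in SLK-KO replicates 1 and 2, and it lay between -368 and -268 bases from the TSS of H2BC5. In SLK-KO replicate 3 the only summit there had a rank of 55 and lay 90 bases after the TSS of H1-4, so that H2BC5 was not listed in that library. The summit thus lay at one or the other of these neighbours, with little change in rank.

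Of the other H1 genes, H1-5 was listed in WT replicate 3 alone, at a rank percentile of 91.7, and H1-6, the testis linker histone, in SLK-KO replicate 3 alone, at 68.6. H1-1 was not listed, and its nearest POL2 summit lay 2675 bp away.

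The best-ranked summit of the H2A and H2B genes lay at H2AC20. Its ranks were 36, 31 and 26 in WT and 31, 29 and 33 in SLK-KO, in lists of 5047 to 19017 summits. It lay 78, -4 and 39 bases from the H2AC20 start in WT and 1, 19 and 31 in SLK-KO. The groups overlapped in both measures. H2AC21 was listed only through this summit. H2BC21, whose start lies 235 bases away on the other strand, was listed through it in every library and had a second, low-ranked summit (rank 11910) past its 3′ end in SLK-KO replicate 3.

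The H2AC6 and H2BC4 pair had ranks of 70, 47 and 81 in WT and 55, 57 and 59 in SLK-KO. The H2BC8 and H2AC8 pair had ranks of 103, 83 and 91 in WT and 61, 60 and 83 in SLK-KO. The SLK-KO ranks of H2BC8 were all at or better than the best WT rank, but the lists differ in length. H2AC and H2BC genes encode the dimer partners of the nucleosome, and paired genes can supply both from 1 promoter.

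There were 12 H2A and H2B pairs with starts 193 to 250 bases apart, and a wider one, H3C7 with H2BC9, at 978. Of the 12, 9 had a summit in all 6 libraries, H2BC13 with H2AC13 had one in 2, and H2AC1 with H2BC1 and H2AC25 with H2BC26 had none. No library listed more than 1 summit at any of the 12, and no peak in any list held more than 1 summit. A single peak over both starts could thus give only 1 summit, and its side does not show that the other start lacked POL2. The smallest gap between POL2 summits of a library was 269 bp anywhere in the genome, so summits closer than that at the starts of a pair are not seen in these lists. Of 56 summits at these pairs, 35 lay on the H2A gene, 14 on the H2B gene and 7 between the starts.

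The side was constant at some pairs. At H2BC11 with H2AC11, at H2AC14 with H2BC14 and at H2AC17 with H2BC17, all 6 summits lay on the H2A gene, and at H2AC15 with H2BC15 all 6 lay on the H2B gene. At H2BC12 with H2AC12, 4 lay on H2BC12 and 2 on H2AC12. The latter came from WT replicate 1 and SLK-KO replicate 1, so the side did not follow genotype.

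H2AC13 and H2BC13 were listed in 2 WT and 0 SLK-KO libraries. The summit had a rank of 220 in WT replicate 2 and 487 in WT replicate 3 and lay 8 to 27 bases after the H2AC13 start. Only 57.1% of the 50-base stretches in the 500 bases around that start, and 57.1% around that of H2AC14, occur once in the reference, which bears on where reads can be placed. The part of this in the WT and SLK-KO counts was not tested. H2AC14 itself was listed in all 6 libraries with a median rank percentile of 2.12.

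The H2A and H2B genes listed in few libraries included H2BC18, in WT replicate 2 (rank 189) and SLK-KO replicate 1 (rank 132). WT replicates 1 and 3 and SLK-KO replicates 2 and 3 listed a summit at its neighbour H3C13 instead, at ranks of 159, 109, 118 and 229. H2AC4 was listed in WT replicate 2 alone (rank 441), and H2BC3 and H2AC19 in SLK-KO replicate 1 alone. H2AC18 was listed in 5 libraries through a summit between -933 and -776 bases from its start, with ranks between 2153 and 11958. H2BC9 was listed in 5, H2BC5 in 5, and H2AC16 in all 6 at a median rank percentile of 9.08. H2AC19 was at a rank percentile of 26.7 and H2BC3 at 81.2, far down the list of their single library.

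Among H3 genes, which encode the replication-coupled forms of histone H3, H3C2 had the best median. It had ranks of 78, 110 and 147 in WT and 105, 95 and 98 in SLK-KO. H3C3 had ranks of 153, 100 and 146 in WT and 133, 150 and 153 in SLK-KO. The groups overlapped for both.

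H3C12 came next with a median rank percentile of 0.964, but this was the H2AC17 summit, at -2342 to -2321 bases from the canonical start of H3C12 and 41 bp from the edge of its longer annotated extent. H3C13 was listed in all 6 libraries, in 2 of them, WT replicate 2 and SLK-KO replicate 1, through the summit at H2BC18. H3C6 was listed through a summit at -931 to -840 bases from its canonical start, with rank percentiles of 29.4, 45.1 and 20.2 in WT and 5.69, 13.4 and 9.4 in SLK-KO. H3C7 had ranks of 2654, 1300 and 1768 in WT and 5653, 1380 and 1800 in SLK-KO. H3 was the only family with no member between these states, with 8 members listed in all 6 libraries and 5 in none.

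Among H4 genes, whose protein is the same from nearly every copy, H4C5 had ranks of 63, 86 and 77 in WT and 64, 87 and 56 in SLK-KO. H4C2 had ranks of 126, 163 and 157 in WT and 162, 186 and 196 in SLK-KO. H4C3 had ranks of 106, 123 and 131 in WT and 214, 179 and 204 in SLK-KO. The H4C3 ranks did not overlap between the genotypes, in lists of unequal length, while its rank percentiles did, at 0.619, 2.44 and 1.32 in WT and 1.13, 1.16 and 1.25 in SLK-KO.

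H4C16, the only member on chromosome 12, was listed in all 6 libraries, with ranks of 442, 561 and 374 in WT and 225, 340 and 270 in SLK-KO. The SLK-KO ranks were all better than the WT ranks. The rank percentiles, 2.58, 11.1 and 3.77 in WT and 1.18, 2.2 and 1.66 in SLK-KO, did not overlap either. H4C12 was listed in 2 WT and 3 SLK-KO libraries at a median rank percentile of 39.3, and H4C4 in SLK-KO replicate 2 alone. H4 had the most unlisted members, 7 of 15.

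Rank percentiles that did not overlap between the genotypes were frequent among all genes. In the full lists, SLK-KO was lower at 14 of the 37 members listed in all 6 libraries (37.8%, background 24.7 percent of the genes listed in all 6), and WT was lower at 0 (background 0.698 percent). The 14 were H2BC21, H2AC20 and H2AC21, H2BC4 and H2AC6, H2AC7 and H2BC7, H2BC8 and H2AC8, H2AC15 and H2BC15, H2AC16, H3C6 and H4C16, several of which share a summit. The lists are longer in SLK-KO on average, and a longer list lowers the percentile of a given rank.

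In the lists of equal length, SLK-KO was lower at 1 of 36 members (2.78%, background 15.6 percent) and WT was lower at 4 (11.1%, background 15.4 percent), so neither share exceeded its background. The first was H4C16, at 8.76, 11.1 and 7.41 in WT and 4.46, 6.74 and 5.35 in SLK-KO. The 4 were H1-2, H4C3, and H2BC11 with H2AC11, which share a summit. H4C3 lay at 2.1, 2.44 and 2.6 in WT and 4.24, 3.55 and 4.04 in SLK-KO. H4C16 was thus the single member whose SLK-KO ranks were ahead of WT on both scales.

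**Figure D4:**
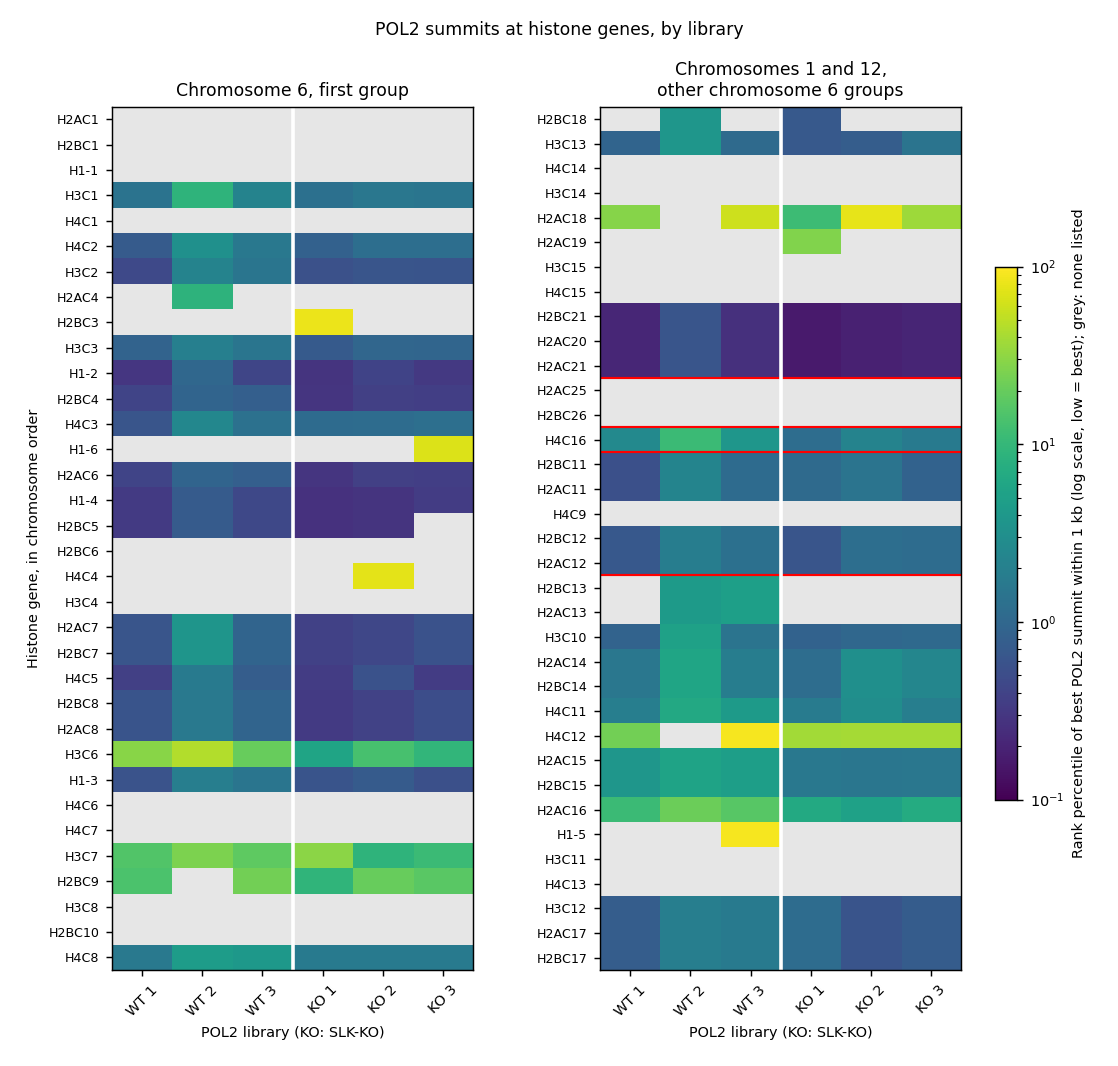
POL2 rank percentile (colour, log scale) of the 69 members in each of the 6 libraries, in genome order, with grey cells where no summit was listed. Red lines separate groups of genes. Members listed in all 6 libraries lie among members listed in none along the chromosome 6 groups.

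The 19 members with no POL2 summit in any library were H1-1, H2AC1, H2AC25, H2BC1, H2BC6, H2BC10, H2BC26, H3C4, H3C8, H3C11, H3C14, H3C15, H4C1, H4C6, H4C7, H4C9, H4C13, H4C14 and H4C15. Their nearest POL2 summit in any library lay 1109 to 236263 bp away, with a median of 3759. H2AC1 was the farthest. Unlisted members thus stood a few kilobases from a POL2 summit in most cases, and H2AC1, H2BC1, H2AC25 and H2BC26 stood apart.

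Mapping could differ between these genes. Of the 19, 12 had only 50-base stretches that occur once in the reference, 4 had none that do (H4C14, H3C14, H3C15 and H4C15), and the read length was 50 bases. The others of the 69 with no such stretch were H2AC18 and H2AC19, which lie in the same duplicated group on chromosome 1. Of the 37 members listed in all 6 libraries, 28 had only unique stretches and 0 had none. For H4C14, H3C14, H3C15 and H4C15, missing POL2 and unplaced reads cannot be told apart. H2AC25 had only unique stretches, and 75.9% of those of H2BC26 were unique.

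By group, 18 of 34 members of the first chromosome 6 group were listed in all 6 libraries, 6 in some and 10 in none. In the second, 4 of 5 were listed in all 6, and H4C9 in none. In the third, 10 of 16 were listed in all 6, 4 in some and 2 in none. The median rank percentile of the members listed in all 6 was 0.6, 1.14 and 2.12 in these groups. On chromosome 1, 4 of 11 were listed in all 6, 3 in some and 4 in none, and H2AC25 and H2BC26, which lie far from the others, were not listed.

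POL2 summits lay at the 5′ end of the genes. Of 183 summits within 1 kb of a member's canonical transcript, counted once for the nearest member, 141 lay inside the transcript, and all 141 were nearer to its TSS than to its 3′ end. Upstream lay 35, and 7 lay past the 3′ end (3.83%). Within 150 bp of the TSS lay 153 (83.6%). The same 7 of 183 lay past the stem-loop.

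The median distance from the TSS was 40, 45 and 33.5 bases in WT and 30, 33 and 31 in SLK-KO. From the 3′ end the medians were -440, -452 and -454 in WT and -460, -457.5 and -460 in SLK-KO. The WT medians from the TSS were all larger than the SLK-KO medians, by a few bases. With the best summit of each listed member within 1 kb of its TSS they overlapped, at 29, 20 and 24 in WT and 18, 21 and 27 in SLK-KO. Non-members in the same window gave 38, 35 and 36 in WT and 36, 35 and 36 in SLK-KO. Since sonicated fragments can be longer than these genes, a summit near the TSS does not show that POL2 was missing from the 3′ end.

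Members and other genes had a like share of summits close to the start, while the members' spread upstream was wider. In the window of 1 kb around the TSS, 62.5% to 69.2% of listed members had the best summit within 150 bp, against 64.6% to 67.7% of non-members. The first quartile of the position lay at -256 to -228 bases for members and at -123 to -105 for non-members. Members of a divergent pair that are listed through the partner's summit count upstream here. At the 23 sites present in all 6 libraries, the summits of the 6 libraries spanned 21 bp at H2AC17 to 262 bp at the H2AC8 and H2BC8 pair, with a median of 69.

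**Figure D5:**
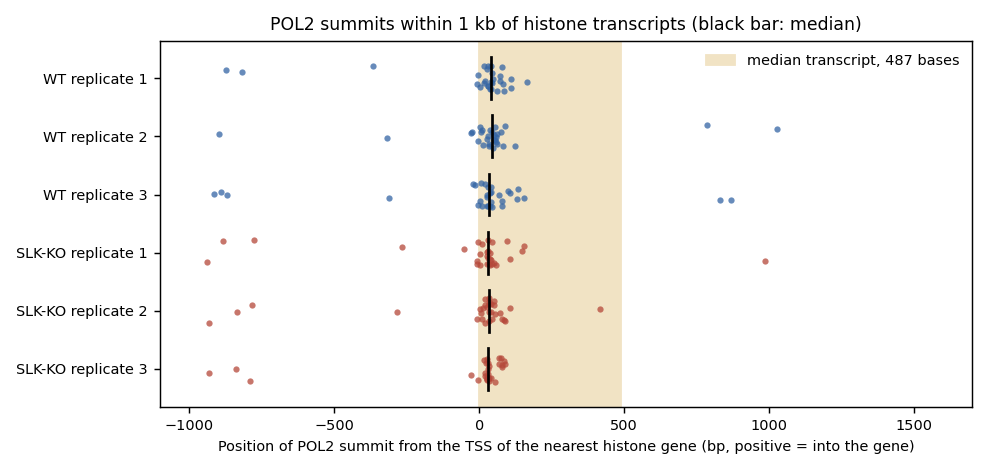
Position (bp) of each POL2 summit from the TSS of the nearest member, by library, for the 183 summits within 1 kb of a canonical transcript, with the median as a black bar and the median transcript length shaded. Most summits lie within 150 bp of the TSS in all 6 libraries, and 7 lie past the 3′ end.

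In the full lists, the SLK-KO libraries held more summits outside the canonical transcripts of the first chromosome 6 group. In its span of 564 kb there were 25, 18 and 23 POL2 summits in WT and 48, 36 and 35 in SLK-KO, and 20, 18 and 18 in WT and 34, 26 and 26 in SLK-KO were within 1 kb of a member by its full annotated extent. In SLK-KO replicate 1, 20 of 51 summits assigned to members lay over 1 kb from any canonical transcript. The WT and SLK-KO numbers in the span of 564 kb did not overlap, in lists of unequal length. No like count was made for other spans of the genome, so the difference cannot be called particular to these genes. Its cause was not tested. The number of members listed did not separate the genotypes.

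MYC was not listed at any replication-dependent histone gene. Within 1 kb, 0 of 69 members had a MYC summit in any of the 6 libraries, against 11.2 percent of all protein-coding genes, and 0 had one in at least 2 SLK-KO libraries, against 5.35 percent. The count was also 0 with a window of 2 kb. MYC lists held between 201 and 1420 summits, so they name few sites per library, and a signal under the caller's threshold at these genes could not be seen in them.

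The nearest MYC summit to any member lay 28577 bp from H2AC25, in SLK-KO replicate 2. None lay within 1001800 bp of the first chromosome 6 group, within 2404300 bp of the second or within 3085882 bp of the third. The nearest to the large chromosome 1 group was 179607 bp away and the nearest to H4C16 was 1018622 bp away.

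Many other genes with POL2 in all 6 libraries had MYC. Of the 4014 genes with POL2 in all 6, 1260 (31.4%) had a MYC summit in at least 1 library. Among the 665 non-members with POL2 in all 6 libraries and a median rank percentile of at most 5, 295 had one (44.4%), against 0 of the 34 members at that limit. Many of the 34 share a summit, so they stand for fewer separate places.

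Among the replication-independent histone genes, a short list, POL2 was listed more often. Of 12, 10 had POL2 in all 6 libraries (background 20.0 percent of all protein-coding genes), and H3-5 had none. H3-3B, a gene for H3.3, was at a median rank percentile of 0.199. H2AX, the variant phosphorylated at DNA breaks, and H3-3A, the other H3.3 gene, each had a MYC summit in 1 SLK-KO library, and the other 10 had none. The background for MYC in at least 1 library was 11.2 percent of all genes. MACROH2A2 was listed for POL2 in 3 SLK-KO and 0 WT libraries (background 1.72 percent) at a median rank percentile of 66.5.

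Fewer of the genes for transcription and 3′ end formation of histone messages were listed in all 6 libraries. Of 18, 5 had POL2 in all 6 (background 20.0 percent). CASP8AP2, a histone locus body protein, and ERI1, an exonuclease that trims the message, had none. MYC was listed at 5 (background 11.2 percent). SNRPE, which encodes a core protein of small nuclear ribonucleoproteins, had MYC in 2 WT and 3 SLK-KO libraries, SNRPF in 1 WT and 2 SLK-KO, and POU2F1, CSTF2 and SNRPB in 1 SLK-KO library each. Of 7 histone chaperone genes, 3 had POL2 in all 6 libraries (background 20.0 percent) and ASF1B and HAT1 had none. NASP had MYC in 1 SLK-KO library and RBBP4 in 2 (background for at least 1 library 11.2 percent). With lists this short, the differences from the background were not tested.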

How the data were processed

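Per the labels, 50 bp paired-end ChIP-seq reads were processed with nf-core/chipseq 2.1.0 against GRCh38.p14. The submitters' processing notes name Trim Galore 0.6.7, cutadapt 3.4, BWA 0.7.18-r1243, Picard 3.2.0 and MACS3 3.0.1. The control used in peak calling, the caller's options and read depth are not given in the sources used here. The deposited score of a summit was read as −log10 of a q-value, since the lowest was 1.30169 and −log10 of 0.05 is 1.30103. It was used only to rank summits within a library.

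A summit counted for each gene, by its full annotated extent, that it lay within 1 kb of, and positions are relative to the canonical transcript. Equal-length lists held the best 5047 POL2 or 201 MYC summits. Reference sequences for promoters, stem-loops and 50-base uniqueness came from GRCh38. Of 82 sequence names in the lists, 58 were in the reference.

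No test was run: values are given by library with mean ± SD (n = 3), beside all 20046 protein-coding genes. The members and lists were chosen with earlier results of these data known. Named were, per family, the 3 best-ranked members listed in all 6 libraries, members listed in 3 libraries of 1 genotype only, unlisted members, members with MYC, and members outside the large clusters. Others were named after their values were seen. Alternatives covered the window, score minimum, list length, gene extent, nearest gene, chromosome 1 and leaving out each library. Counts of genes with rank percentiles that do not overlap were added after seeing the data. Counting was tested on simulated data. The 6 IgG and 2 Input samples entered no value. Python 3.11.15, numpy 2.4.6, pandas 2.3.3, pysam 0.24.0 and matplotlib 3.10.9 were used. Some items are not reported here.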

Additional observations from a re-analysis of the deposited data

How the results depend on the processing

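No paired analysis was possible because no value here came from a test, and the shared replicate numbers carry no statement of a common batch. Of 104 alternative values for the 7 summary results, 97 stayed within the spread of the libraries or within 1.5 times the count, and 7 moved. Some of the 97 could not move. Leaving out a library of one genotype cannot change the count of the other, and MYC at 0 members with 2 kb fixes 0 for narrower settings. The SLK-KO minus WT difference in the members' median rank percentile was -0.481, and it was -2.15 with scores of at least 10 and 0.367 in lists of equal length. The difference in median summit position was -3.5 bases, and it was 2.17 with a 500 bp window, 5.5 with 2 kb and -6.5 with the nearest member only. The difference in members listed was 0, and it was -2.33 in lists of equal length and 2.0 with the nearest member only. The cause was not tested. Leaving out each library gave -0.873 to -0.0674 for the rank percentile, where the last came without WT replicate 2, -4.83 to -1.83 bases for position and -0.833 to 0.833 for members listed. At least 2 WT libraries listed 38 to 43 members, at least 2 SLK-KO libraries 40 to 41, and 0 were in 3 SLK-KO and 0 WT libraries. With the nearest member only, the first 2 counts fell from 43 and 41 to 30 and 30, which the limit of 1.5 times did not count as moved. MYC stayed at 0 members in all of these. Differences this small, at unknown depth, were not resolved by 3 libraries a genotype.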
